A study of Mus musculus with 32 samples.

Results

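Basement membrane proteins were examined through the transcripts of 10 genes: Col4a1 and Col4a2 (type IV collagen), Lama2, Lama4, Lamb1, Lamb2 and Lamc1 (laminin chains), Nid1 and Nid2 (nidogens) and Hspg2 (perlecan). The genes were taken by symbol from the deposited expression table, which holds 20560 genes, and all 10 were found in it. RNA of 3T3-L1 cells was sequenced in 32 libraries. 3T3-L1 is an established mouse preadipocyte line, grown in dishes without other cell types, that turns into fat-storing cells after hormone treatment. The study lowered Zbtb9, whose product carries zinc fingers and a BTB domain, with either of 2 short hairpin RNAs (shRNAs). Cells with a scramble hairpin served as control.

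By their titles, libraries came from day 0, 3, 7 and 11 of differentiation, although the protocol text names day 11 alone as the day of harvest. The titles were used here, with 4 scramble control, 2 shRNA 1 and 2 shRNA 2 libraries on each day. Per the labels, all 3 kinds of cells were induced 2 days after confluence with insulin at 167 nM, dexamethasone at 1 µM and isobutylmethylxanthine at 0.5 mM. After day 3 only insulin was kept, until day 7, and nothing was added later. The replicates are called biological in the labels, which do not say whether they came from separate infections. The p-values measure the spread between these libraries.

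A basement membrane is the thin sheet of extracellular matrix that underlies epithelia and wraps muscle, nerve and fat cells. Laminins, each built of an alpha, a beta and a gamma chain, polymerize at the cell surface and bind integrins and dystroglycan, while type IV collagen forms a covalently linked network. Nidogens bridge the laminin and collagen networks, and perlecan, a large heparan sulfate proteoglycan, binds to both and holds growth factors. Each mature fat cell in tissue is enclosed by such a sheet, and preadipocytes in culture secrete its components while they differentiate.

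The table's values are log2 values. Levels are given here as normalized reads, meaning whole reads rebuilt from those values and divided by the library's size factor. Levels of different genes are compared only as normalized reads per kilobase of exon. Differences between groups are on the deposited log2 scale with their standard error (SE). A gene is said to be called, or to have risen or fallen, where limma's adjusted p was under 0.05 over all genes tested in that comparison. The share of all tested genes called in a comparison is the background for a count of members. All 10 genes were tested in every comparison.

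By the GENCODE M21 annotation (GRCm38), the laminin genes lie at chr10:26980036-27619758 (Lama2), chr10:38965515-39110188 (Lama4), chr12:31265234-31329644 (Lamb1), chr9:108479736-108490530 (Lamb2) and chr1:153218922-153332786 (Lamc1). The nidogen genes lie at chr13:13437551-13512269 (Nid1) and chr14:19751265-19811787 (Nid2). Hspg2 lies at chr4:137468769-137570630. Col4a1 and Col4a2 are neighbours at chr8:11198423-11312826 and chr8:11312805-11449287. The reads of each gene come from all its exons, untranslated parts included.

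Depth was 22280321 to 31073716 rebuilt reads per library. Zbtb9 was covered by few reads: the mean in control libraries was 14.2 ± 0.594, 10.3 ± 2.98, 16.8 ± 4.15 and 15.5 ± 4.02 normalized reads (SD, n = 4) at days 0, 3, 7 and 11, and in knockdown libraries 8.76 ± 2.83, 5.20 ± 3.96, 7.16 ± 2.03 and 8.46 ± 7.65 (SD, n = 4). The library labelled shRNA 1 replicate 2 of day 11 had 19.3 normalized reads of Zbtb9 (17 reads). This is within the control range of that day, 12.07 to 19.96, so its target level, on few reads, goes against its label. The summed reads of 10 fat cell marker genes, by contrast, were 125275 to 150227 in the knockdown libraries of day 11, this one included. Control libraries of that day had 58967 to 69234. Every pooled or shRNA 1 value at day 11 includes the library labelled shRNA 1 replicate 2, and the values without it stand beside the results it moves. At day 3 scramble control replicate 2, at 6.35, lay within the knockdown range of 0.00 to 8.99. With the shRNAs pooled Zbtb9 was called at day 7 alone (log2 change -0.35, limma adjusted p = 0.0288), and it was too low to be tested at day 3. That call was lost without any 1 of 4 of the 8 libraries: scramble control replicate 2 or 3, shRNA 1 replicate 1 or shRNA 2 replicate 2 (adjusted p up to 0.0789). At day 11 the change was -0.28 and not called (adjusted p = 0.173). It was -0.42 and called without the library labelled shRNA 1 replicate 2 (adjusted p = 0.0323), and called in 1 fit of all 32 libraries (adjusted p = 0.049). Of the single hairpins, shRNA 2 was called at day 11 (-0.49, adjusted p = 0.0228), but not without scramble control replicate 1 or 3 or either of its own libraries (adjusted p up to 0.132). Of its exon bases, 84.38% are shared on the same strand with AC144621.2, so its reads are uncertain. Fat cell markers marked the differentiation, as the summed reads of 10 such genes rose from 20079 to 20663 per control library at day 0 to 58967 to 69234 at day 11. All 10 were called higher at day 11 than at day 0 in control cells, where 64.6% of all genes were called. From day 7 to day 11 the control mean of Fabp4 went from 15506 to 4687 normalized reads and that of Adipoq from 1709 to 2520. Lpl made up most of the sum, with control means of 18693 at day 0 and 43839 at day 11. In knockdown libraries the same sum was 145088 to 216120 at day 7, against 52208 to 56824 in control libraries. Of the 10 markers, 10 were called higher with knockdown at day 3, 10 at day 7 and 9 at day 11. Of 6 preadipocyte markers, 5 were tested, and all 5 were called lower at days 7 and 11. At day 3, 3 were called, of which Dlk1, the most abundant of them, was higher (0.36, adjusted p = 0.00175). In control cells, 3 of the 5 were called at day 11 against day 0, 1 higher and 2 lower. Dlk1 was not called there (0.07, adjusted p = 0.209). Of 6 cell cycle genes, 3, 6 and 0 were called higher at days 3, 7 and 11. The part of these shifts in the basement membrane results was not tested. Of 5 endothelial markers in the table, Cdh5, Kdr, Tek and Emcn did not exceed 12.4 normalized reads in any library, and Pecam1 did not exceed 41.6. Of 5 macrophage markers, Ptprc did not exceed 3.04 and Itgam 7.95, whereas Cd68 reached 575, Lyz2 173 and Csf1r 43.1. With knockdown, Cd68 was called higher at days 7 and 11 (0.87 and 0.86), and Lyz2 lower at day 7 (-0.75).

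In control cells, most of these genes changed over the days of differentiation, and they peaked on different days. Treatment also changed at days 3 and 7, so hormones, time in culture and differentiation cannot be told apart here. The collagen chains, Lamc1, Lama4 and Lamb1 were highest at day 3, Lama2 at day 7 and Nid1 at day 11. The 10 genes together took 0.703% ± 0.031 of a control library's reads at day 0 (SD, n = 4), 1.60% ± 0.039 at day 3, 1.35% ± 0.041 at day 7 and 1.01% ± 0.025 at day 11. Col4a1 and Col4a2 alone made up 1.04% ± 0.031 of all reads at day 3.

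Per kilobase of exon, Col4a1 was the highest of the 10 at day 0, with 6384 ± 109 normalized reads per kilobase (SD, n = 4). Nid1 followed with 5335 ± 283 and Col4a2 with 4889 ± 181. A middle group held Lamb1 at 1283 ± 68.4, Hspg2 at 1198 ± 226, Lamc1 at 1040 ± 64.0, Lamb2 at 891 ± 29.5 and Lama4 at 853 ± 49.5. Within it the libraries of Lamb1 and Hspg2, of Hspg2 and Lamc1, and of Lamb2 and Lama4 overlapped, so these neighbours did not differ beyond their spread. Nid2 stood lower at 336 ± 22.2, and Lama2 was close to absent at 1.21 ± 0.202.

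**Figure D1:**
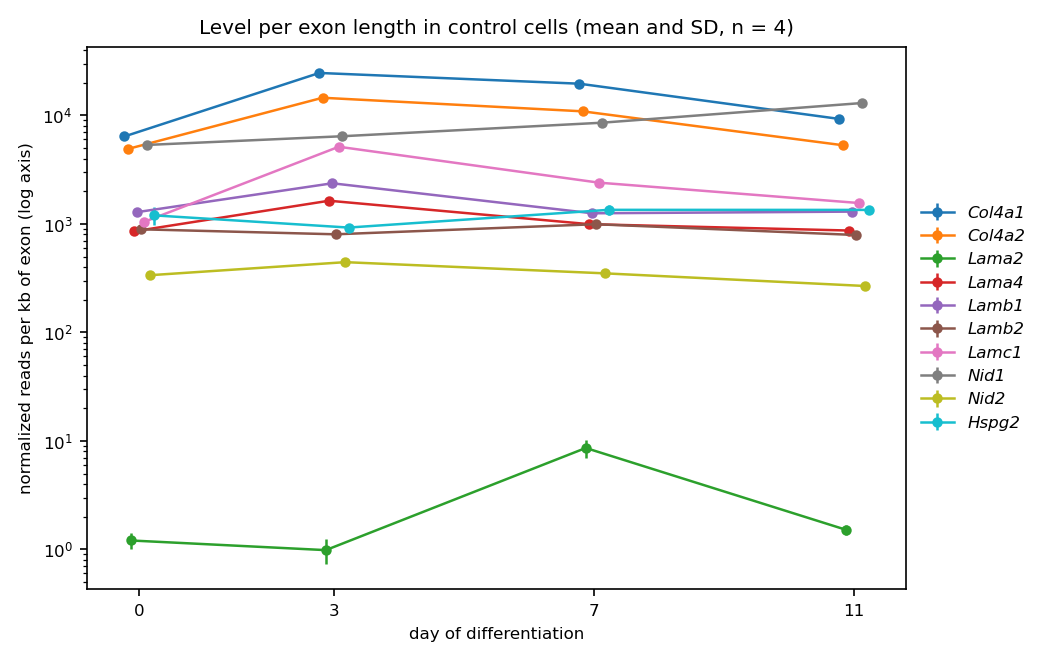
Level of each basement membrane gene in scramble control cells by day of differentiation (x axis), as normalized reads per kilobase of exon on a log axis (points, mean of 4 libraries; bars, SD). Col4a1 led from day 0 to day 7 and Nid1 at day 11, with 12983 normalized reads per kilobase, while Lama2 stayed below all others.

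The order changed by day 11. Nid1 had become the highest at 12983 ± 383 normalized reads per kilobase (SD, n = 4), above Col4a1 at 9264 ± 326 and Col4a2 at 5307 ± 199. At days 7 and 11 the neighbours Hspg2 and Lamb1, and Lama4 and Lamb2, overlapped. At day 3 no neighbours in the order overlapped.

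Against day 0, 9 of the 10 genes were called at day 3 in control cells, where 76.6% of all tested genes were. Of these 9, 7 rose, against 38.3% of all genes called higher. Lamc1, the gamma chain shared by most laminins, rose by 2.24 on the log2 scale (SE 0.043, adjusted p = 3e-30). Col4a1 rose by 1.89 (SE 0.034) and its partner chain Col4a2 by 1.53 (SE 0.037). Lama4, the main laminin alpha chain of fat cells and vessel walls, rose by 0.91 (SE 0.040), and Lamb1, a widely used beta chain, by 0.86 (SE 0.039). Nid2 rose by 0.38 and Nid1 by 0.26. Hspg2 fell by 0.35 (SE 0.107, adjusted p = 0.00995), and by 0.23 without scramble control replicate 4 of day 0 (adjusted p = 0.00758). Lamb2 fell by 0.15 (SE 0.039, adjusted p = 0.000958), a call not made in 1 fit of all 32 libraries (adjusted p = 0.0764). The median change of the 10 was 0.62, against 0.00 for all genes tested. With libraries scaled to equal totals, the all-gene median at day 3 was -0.12, and 38.6% of the called genes were higher in place of 50.1%.

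From day 3 to day 7 all 10 genes were called, where 74.2% of all genes were. Lamc1 fell by 1.07, Lamb1 fell by 0.89, Lama4 fell by 0.70, Col4a2 fell by 0.40, Nid2 fell by 0.33 and Col4a1 fell by 0.32. The 4 that rose were Lama2 by 1.96, Hspg2 by 0.52, Nid1 by 0.40 and Lamb2 by 0.30. From day 7 to day 11, 8 were called, where 55.0% of all genes were. Of the 8, 7 fell, against 26.1% of all genes called lower. Lama2 fell by 1.66, Col4a1 fell by 1.05 and Col4a2 fell by 1.01. Nid1 was the 1 gene that rose, by 0.59 (SE 0.041, adjusted p = 2.2e-14).

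Relative to day 0, 7 of the 10 were called at day 7 (69.1% of all genes), and all 7 were higher (33.3% of all genes). At day 11, 6 were called (64.6% of all genes). Nid1 was then 1.25 above day 0 on the log2 scale and Lamc1 0.56, while Nid2 was 0.32 below it. In 1 fit of all 32 libraries, Lamb2 was not called at day 7 or 11 (adjusted p = 0.0829 and 0.0546), nor Col4a2 at day 11 (adjusted p = 0.419). Hspg2 had a wide spread at day 0, from 14153 to 21659 normalized reads. Its differences at days 7 and 11 from day 0 were both 0.18 and not called (adjusted p = 0.164 and 0.166), but each was 0.29 and called without scramble control replicate 4 of day 0 (adjusted p = 0.00171 and 0.00181).

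With both shRNAs pooled, genes were called from day 3 on, and most at day 7. At day 0, 0 of 10 genes were called by limma, with both shRNAs as 1 group, where 3.25% of all genes were called. At an unadjusted p under 0.05 there were 3, and limma's voom on the rebuilt reads also called 0. At day 3, 3 were called, where 26.7% of all genes were, and all 3 were higher (14.6% of all genes): Nid2, Lamb1 and Lamc1. At day 7, 7 were called, where 47.6% of all genes were. Of these, 4 were higher (24.9% of all genes), namely Nid2, Lamb1, Lama4 and Lamc1, and 3 were lower (22.6% of all genes), namely Lama2, Lamb2 and Nid1. At day 11, Nid2, Lamc1 and Lamb1 were called, all 3 higher, where 33.0% of all genes were called and 16.8% called higher. The counts at days 3 and 11 are near these backgrounds. Leaving out 1 library moved the day 11 count to 1 (without scramble control replicate 1 or 3 or shRNA 1 replicate 1), 2 or 6 (without the library labelled shRNA 1 replicate 2, where 32.3% of all genes were called). The 3 genes added were Col4a1, Hspg2 and Lama4, and without that library Lamb1 was at 0.19, Lamc1 at 0.31 and Nid2 at 0.47 (adjusted p = 0.0288, 0.00211 and 6.25e-05). With the hairpins kept as separate groups and their mean set against control, so that their difference from each other did not count as spread, 5, 7, 9 and 6 genes were called at days 0, 3, 7 and 11. Under that grouping 25.3%, 40.4%, 55.7% and 46.1% of all genes were called. With the replicate number added to the fit as a block, 0, 0, 6 and 0 genes were called. Of all genes, 0%, 6.43%, 30.9% and 12.4% were then called. That block leaves scramble control replicates 3 and 4 out of the comparison, as no knockdown library has those numbers. In these cultures, fewer cells that make a protein and less RNA per cell cannot be told apart.

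The 4 knockdown and 4 control libraries did not overlap for 0, 3, 6 and 2 of the 10 genes at days 0, 3, 7 and 11, where 13.9%, 28.3%, 44.2% and 34.3% of all genes had no overlap. The median change of the 10 was -0.05 at day 0 and 0.11 at each of days 3, 7 and 11, against -0.01 to 0.01 for all genes.

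**Figure D2:**
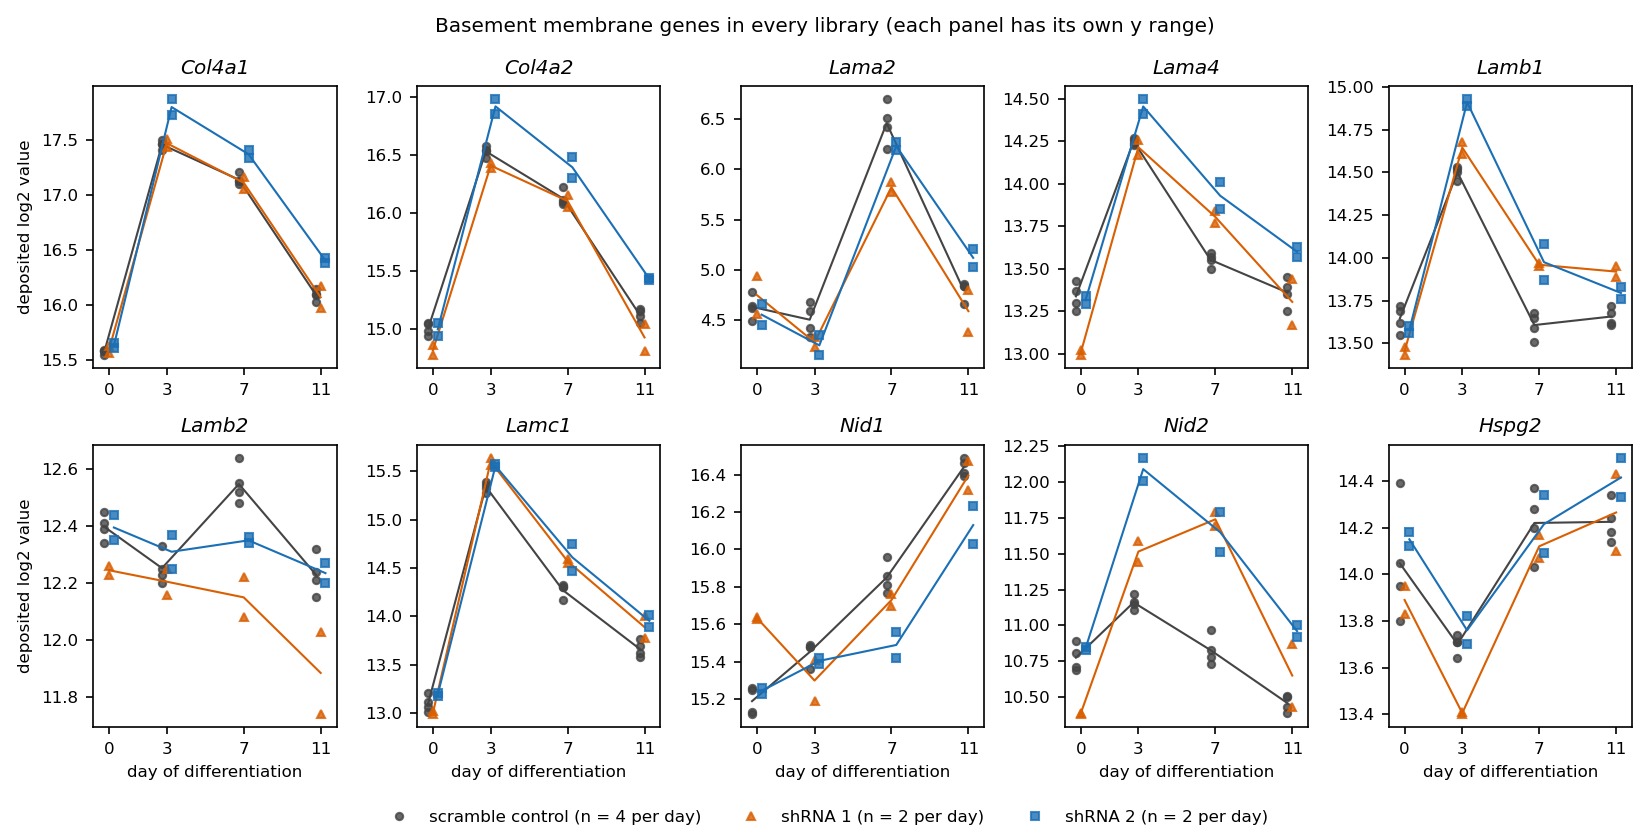
Deposited log2 value (y axis, a separate range in each panel) of the 10 genes in every library by day of differentiation (x axis), with a line through the group means. Points are 4 scramble control, 2 shRNA 1 and 2 shRNA 2 libraries per day. Nid2 lay above control with both shRNAs at days 3 and 7, and Col4a1 and Col4a2 lay above control with shRNA 2 at days 3, 7 and 11.

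Nid2, the nidogen with the lower level in these cells, had the largest differences of the 10 at days 3, 7 and 11. At day 7 the control libraries had 1807, 1998, 1744 and 1686 normalized reads, the shRNA 1 libraries 3628 and 3367, and the shRNA 2 libraries 2960 and 3617. Every knockdown library lay above every control library, and the hairpins overlapped each other. The difference was 0.87 on the log2 scale (SE 0.069, limma adjusted p = 7.36e-08), or 1.83-fold. At day 3, control libraries had 2392, 2277, 2296 and 2212 normalized reads, against 2811 and 3129 with shRNA 1 and 4245 and 4755 with shRNA 2. Again no library overlapped, but the hairpins stood apart from each other. This difference was 0.64 (SE 0.159, adjusted p = 0.0225), and it was not called without scramble control replicate 2, 3 or 4 (adjusted p = 0.0533, 0.0516 and 0.0562). At day 11 it was 0.35 (SE 0.106, adjusted p = 0.0283). There the library labelled shRNA 1 replicate 2, with 1359 normalized reads, lay within the control range of 1320 to 1435. The call at day 11 was lost when any of 7 of the 8 libraries was left out (adjusted p from 0.0543 to 0.0763). Without the library labelled shRNA 1 replicate 2 the difference was 0.47 (adjusted p = 6.25e-05). Nid2 shares 8.45% of its exon bases with Rtraf on the opposite strand, and whether reads were counted by strand is not given in the sources used here.

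Nid1, the major nidogen, went the other way at day 7. Control libraries had 55806 to 64129 normalized reads, shRNA 1 libraries 53270 and 55431, and shRNA 2 libraries 43494 and 48131. The groups did not overlap, with shRNA 2 clearly lower and shRNA 1 just under the lowest control. The difference was -0.24 (SE 0.070, adjusted p = 0.00986). With shRNA 1 alone it was -0.12 and not called (adjusted p = 0.0683), but called with libraries scaled to equal totals (-0.18, adjusted p = 0.00314). At day 0 the shRNA 1 libraries, with 50724 and 51143 normalized reads, lay above all controls (35260 to 38746), while the shRNA 2 libraries had 39010 and 38170. With the hairpins pooled, the day 0 difference of 0.25 was not called (adjusted p = 0.192).

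Among the laminin beta chains, Lamb1 and Lamb2 moved in opposite directions at day 7. Lamb1 had 11562, 12198, 13076 and 12794 normalized reads in control libraries, 15865 and 16095 with shRNA 1, and 14896 and 17381 with shRNA 2. All knockdown libraries were higher, by 0.36 (SE 0.057, adjusted p = 8.25e-05), or 1.28-fold. Lamb2, the beta chain of muscle and kidney basement membranes, had 5748, 6414, 6051 and 5925 normalized reads in control libraries, 4759 and 4303 with shRNA 1, and 5278 and 5187 with shRNA 2. All knockdown libraries were lower, and the difference was -0.30 (SE 0.063, adjusted p = 0.00103).

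Lamb1 was also higher with knockdown at day 3 (22692 to 23921 against 25333 to 31860 normalized reads, difference 0.28, SE 0.064, adjusted p = 0.00607) and at day 11 (12384 to 13430 against 13819 to 15807, difference 0.20, SE 0.058, adjusted p = 0.021). The ranges did not overlap on either day. The day 11 call was lost without scramble control replicate 1 or 3 or shRNA 1 replicate 1 (adjusted p = 0.07, 0.0663 and 0.0641). Lamb2 differed by 0.00 at day 3 and by -0.17 at day 11, neither called (adjusted p = 0.958 and 0.221).

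Lamc1, the gamma chain, was higher on all 3 days after induction. With the replicate block it was not called at days 3 and 11 (adjusted p = 0.0512 and 0.0977). At day 7 control libraries had 18390, 20267, 20473 and 20184 normalized reads, shRNA 1 libraries 24904 and 24135, and shRNA 2 libraries 22880 and 27905. No knockdown library reached down to the controls, and the difference was 0.32 (SE 0.061, adjusted p = 0.000462). At day 3 the ranges were 40774 to 43915 in control and 48967 to 52582 in knockdown libraries, a difference of 0.24 (SE 0.043, adjusted p = 0.000984). At day 11 they were 12116 to 13832 and 13903 to 16609, a difference of 0.26 (SE 0.069, adjusted p = 0.0137), with the highest control just under the lowest knockdown library.

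The laminin alpha chains also diverged at day 7. Lama4 had 11518, 11927, 12342 and 12161 normalized reads in control libraries, 14732 and 14043 with shRNA 1, and 14818 and 16657 with shRNA 2. It was higher in every knockdown library, by 0.32 (SE 0.055, adjusted p = 0.000208). On the other days its differences were -0.18, 0.09 and 0.09 (days 0, 3 and 11), none called. Without the library labelled shRNA 1 replicate 2 the day 11 difference was 0.19 and called (adjusted p = 0.0422).

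Lama2, the alpha chain of muscle and nerve laminin, was measured from few reads except at day 7. There it had 145.6, 172.4, 108.8 and 135.1 normalized reads in control libraries, 80.17 and 73.08 with shRNA 1, and 108.0 and 115.9 with shRNA 2. The shRNA 1 libraries were lowest, and shRNA 2 replicate 2 overlapped the controls. The difference was -0.43 (SE 0.142, adjusted p = 0.0194). It was not called without scramble control replicate 2, shRNA 1 replicate 1 or shRNA 1 replicate 2 (adjusted p = 0.0715, 0.0524 and 0.0592). The deposited transform draws low genes towards their mean, so log2 differences of Lama2 are understated. Elsewhere its group means lay between 10.0 and 36.7 normalized reads.

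Promoters are shown for the 4 of the 7 genes called at day 7 that are in the RefSeq promoter table, namely Lamb1, which rose, and Lamb2, Lama2 and Nid1, which fell. Nid2, Lama4 and Lamc1 were not matched there. The stretches are the bases from that table (GRCm38.p6) that lie before the first GENCODE M21 exon in its window. Of the 10 genes, 7 matched the table and 5 had such a stretch. Capitals mark matches on either strand to the letters CCAAT, the core of the CCAAT box, and to GGGCGG, the GC box. A match on the other strand stands as its reverse complement. The TATA box (TATAAA) and the site of AP-1 factors (TGANTCA) were searched in the same way.
Lamb1, chr12:31265043-31265233, plus strand: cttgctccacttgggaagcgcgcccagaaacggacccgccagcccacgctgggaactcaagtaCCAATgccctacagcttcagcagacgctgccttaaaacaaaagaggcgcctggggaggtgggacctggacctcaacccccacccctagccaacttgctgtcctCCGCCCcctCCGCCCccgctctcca
Nid1, chr13:13437352-13437550, plus strand: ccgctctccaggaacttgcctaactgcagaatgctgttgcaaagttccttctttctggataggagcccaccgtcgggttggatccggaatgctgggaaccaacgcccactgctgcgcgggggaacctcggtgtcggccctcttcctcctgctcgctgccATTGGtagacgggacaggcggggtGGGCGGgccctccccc
Lamb2, chr9:108479612-108479735, plus strand: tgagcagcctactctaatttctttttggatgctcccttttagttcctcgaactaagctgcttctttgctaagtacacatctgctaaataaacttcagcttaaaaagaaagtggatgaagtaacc
Lama2, chr10:27616943-27617192, minus strand: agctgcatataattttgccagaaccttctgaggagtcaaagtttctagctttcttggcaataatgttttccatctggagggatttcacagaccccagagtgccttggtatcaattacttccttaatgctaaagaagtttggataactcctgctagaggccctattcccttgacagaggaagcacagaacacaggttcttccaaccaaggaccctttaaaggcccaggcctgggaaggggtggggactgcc

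The Lamb1 stretch of 191 bases held 1 CCAAT and 2 GGGCGG matches. Of 27025 promoters in the table, 27.4% held CCAAT and 23.0% GGGCGG in a window of that length. The Nid1 stretch of 199 bases held 1 of each, which 28.7% and 24.3% of promoters held. The Lamb2 stretch of 124 bases and the Lama2 stretch of 250 bases held none of these letters. In windows of those lengths, 16.8% and 34.5% of promoters held CCAAT and 13.0% and 32.9% held GGGCGG. The TATA box and AP-1 letters were in none of the 4 stretches. The G and C share was 63.9% for Lamb1, 63.8% for Nid1, 37.9% for Lamb2 and 47.2% for Lama2. The RefSeq start of each of the 4 genes lies inside the GENCODE span of the gene. For Lama2 it is at base 27616942 and the span extends to base 27619758. For Lamb1, Nid1 and Lamb2 the stretch ends upstream of the RefSeq starts, at bases 31265293, 13437602 and 108479862. The bases in between were not searched. The matches describe these letters and show no binding.

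Col4a1 and Col4a2, whose chains assemble into the common type IV collagen of basement membranes, start head to head on chromosome 8 (GRCm38). Col4a1 starts at base 11312826 on the minus strand and Col4a2 at 11312805 on the plus strand, so that their annotated first exons overlap by 22 bases. Neither was called with the hairpins pooled. The differences for Col4a1 were 0.04, 0.18, 0.11 and 0.15 at days 0, 3, 7 and 11, and those for Col4a2 were -0.10, 0.13, 0.12 and 0.06. Single libraries decided some of this: Col4a1 was 0.25 at day 3 and called without shRNA 1 replicate 1 (adjusted p = 0.0223). Without shRNA 1 replicate 2 of day 7, Col4a1 and Col4a2 were called on that day (0.17 and 0.18, adjusted p = 0.0349 and 0.04). Without the library labelled shRNA 1 replicate 2 of day 11, Col4a1 was called there (0.23, adjusted p = 0.0247).

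The collagen libraries of the hairpins did not overlap each other at days 3, 7 and 11. At day 3 Col4a1 had 176383, 188831, 184502 and 184056 normalized reads in control libraries, 180386 and 189906 with shRNA 1, and 222925 and 247395 with shRNA 2. The shRNA 1 libraries were within or just above the control range and the shRNA 2 libraries above all others. Against control the difference was 0.01 (SE 0.037, adjusted p = 0.819) with shRNA 1 and 0.35 (SE 0.037, adjusted p = 3.29e-09) with shRNA 2. The hairpins differed from each other by 0.33 (SE 0.043, adjusted p = 2.43e-07).

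Col4a2 at day 3 had 91963, 99015, 96358 and 97118 normalized reads in control libraries, 86147 and 89607 with shRNA 1, and 120912 and 132685 with shRNA 2. It was thus lower than every control with shRNA 1 and higher with shRNA 2. The differences were -0.13 (SE 0.037, adjusted p = 0.0067) and 0.39 (SE 0.037, adjusted p = 2.88e-10). The shRNA 1 call was lost without shRNA 1 replicate 1 (adjusted p = 0.141). The same opposite calls were made at day 11, at -0.19 (adjusted p = 0.0332) and 0.31 (adjusted p = 0.00205). Without the library labelled shRNA 1 replicate 2 the shRNA 1 value at day 11 was -0.07 (adjusted p = 0.486), and the call was also lost without scramble control replicate 1, 2 or 4 (adjusted p = 0.0788, 0.0513 and 0.0725). At day 7 Col4a1 and Col4a2 were higher with shRNA 2 only, by 0.24 and 0.27 (adjusted p = 0.000484 and 0.000309), and shRNA 2 differed from shRNA 1 by 0.26 and 0.29 (adjusted p = 0.00349 and 0.00247). These 2 differences between hairpins were not called without shRNA 1 replicate 2.

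Hspg2, the gene for perlecan, was not called with the hairpins pooled on any day, with differences of -0.02, -0.12, -0.05 and 0.12. It was called at day 3 without shRNA 2 replicate 1 (-0.20, adjusted p = 0.0415) and at day 11 without the library labelled shRNA 1 replicate 2 (0.20, adjusted p = 0.0337). At day 3 it had 12625 to 13587 normalized reads in control libraries, 10726 and 10650 with shRNA 1, and 14374 and 13177 with shRNA 2. The shRNA 1 libraries lay below all others. Its difference from control was -0.30 (SE 0.040, adjusted p = 1.79e-07) with shRNA 1 and 0.06 (adjusted p = 0.302) with shRNA 2.

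**Figure D3:**
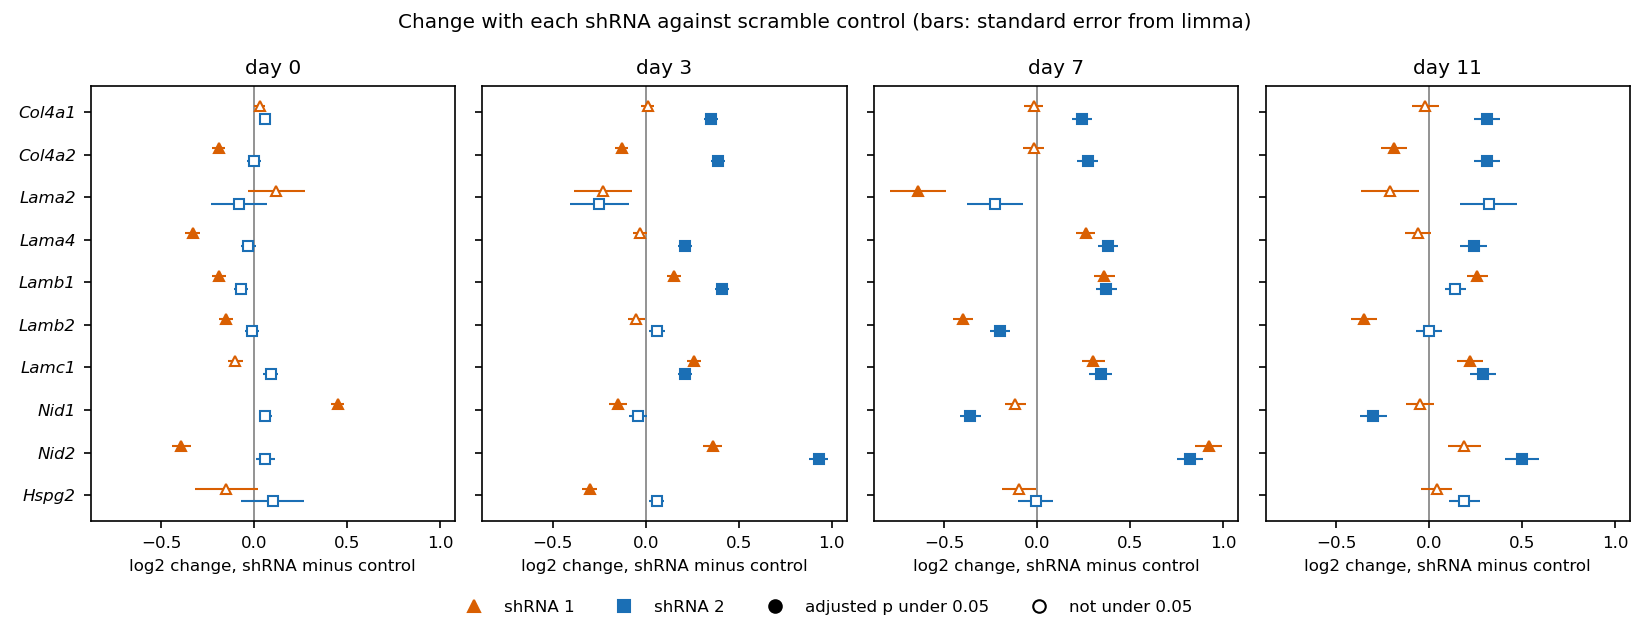
Log2 difference from scramble control (x axis) for each gene with shRNA 1 (triangles) and shRNA 2 (squares) at each day; bars are SE from limma, and filled symbols had an adjusted p under 0.05. At day 7 Nid2 was at 0.92 and 0.82, and at day 0 the filled symbols were all of shRNA 1.

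Taken hairpin by hairpin, with 2 libraries each, the number called against control differed most at day 0. With shRNA 1, 6 genes were called at day 0, where 34.7% of all genes were: Nid1 at 0.45, Nid2 at -0.39, Lama4 at -0.33, Lamb1 at -0.19, Col4a2 at -0.19 and Lamb2 at -0.15. Lamb2 was not called without shRNA 1 replicate 1 (adjusted p = 0.056). With shRNA 2, limma called 0 of 10 at day 0 (2 at an unadjusted p under 0.05), where 17.6% of all genes were called. With libraries scaled to equal totals, Col4a1 and Lamc1 were called there (0.09 and 0.12, adjusted p = 0.0211 and 0.0301). The hairpins differed from each other for 7 genes at day 0, against 35.0% of all genes.

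At day 3, shRNA 1 called 6 genes (39.4% of all genes), 3 in each direction, and shRNA 2 called 6 (31.4% of all genes), all higher (16.8% of all genes). Between the hairpins 6 genes were called (19.6% of all genes), all 6 higher with shRNA 2 (10.6% of all genes). The largest of these were Nid2 at 0.58 and Col4a2 at 0.51. At day 7, shRNA 1 called 6 (52.0% of all genes) and shRNA 2 called 8 (46.0%), and 4 differed between hairpins (16.4%). Without shRNA 1 replicate 2, these 4 (Col4a1, Col4a2, Nid1 and Lamb2) all lost their call between hairpins (adjusted p = 0.106, 0.0684, 0.121 and 0.335). Without shRNA 2 replicate 2, Col4a2 and Lamb2 lost theirs (adjusted p = 0.0724 and 0.0629). At day 11 the counts were 4 for shRNA 1 (43.6%), 6 for shRNA 2 (36.9%) and 6 between hairpins (22.0%). The last count was 2 without the library labelled shRNA 1 replicate 2, 2 without shRNA 2 replicate 1 and 3 without shRNA 2 replicate 2.

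Both hairpins called the same gene in the same direction for 0 genes at day 0, where 5.66% of all genes were so called. For 3 genes, Lamb1, Lamc1 and Nid2, this held at day 3 (19.5% of all genes). For 5 genes, Lama4, Lamb1, Lamb2, Lamc1 and Nid2, it held at day 7 (35.8%), and for Lamc1 alone at day 11 (23.8%). The hairpins share their control libraries. Several of these calls were lost without 1 library. At day 3 with shRNA 1, Nid1 (-0.15, adjusted p = 0.0138) was not called without replicate 1 (adjusted p = 0.578), nor Lamb1 (0.15, adjusted p = 0.00153) without replicate 2 (adjusted p = 0.0924). At day 11 with shRNA 1, Lamc1 (0.22, adjusted p = 0.0169) was not called without replicate 1 (adjusted p = 0.28), while Nid2 (0.19) was called without the library labelled replicate 2 (0.41, adjusted p = 0.000342). At day 11 with shRNA 2, Nid1 (-0.30) was not called without replicate 1 (adjusted p = 0.13), and neither Lama4 (0.24) nor Lamc1 (0.29) without replicate 2 (adjusted p = 0.128 and 0.0798).

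Whether the knockdown difference itself changed with time was tested in 1 fit of all 32 libraries. Against day 0, the difference was called as changed for 2 genes at day 3 (6.57% of all genes), 5 at day 7 (29.9%) and 4 at day 11 (23.2%). Nid2 and Lamb1 were among them on all 3 days. At day 11 the calls of Nid2 and Lamc1 were lost with libraries scaled to equal totals (adjusted p = 0.063 and 0.0714). Each was also lost when any of several single libraries was left out. For Nid2 the difference was larger than at day 0 by 0.81 at day 3 and by 1.03 at day 7 (SE 0.183; adjusted p = 0.0065 and 7.81e-05). For Lamb1 it was larger by 0.41 and 0.49 (SE 0.086; adjusted p = 0.00279 and 4.36e-05). These changes are measured from day 0, where 6 genes were called with shRNA 1 and 0 with shRNA 2.

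Some of these proteins can stand in for each other or assemble together, so ratios within a library were compared as well. The log2 ratio of Nid1 to Nid2 at day 7 was 5.03 ± 0.16 in control and 3.91 ± 0.12 in knockdown libraries (SD, n = 4), a difference of -1.11. The ratio of Lamb1 to Lamb2 at day 7 was 1.06 ± 0.09 in control and 1.72 ± 0.16 in knockdown libraries, a difference of 0.66. The ratio of Lama4 to Lama2 at day 7 was 7.09 ± 0.24 and 7.84 ± 0.17, a difference of 0.75. In each of the 3 cases the arms did not overlap.

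Of 16 such comparisons (4 ratios on 4 days), 9 reached the smallest two-sided exact permutation p that 4 against 4 libraries allows, 0.0286. Adjusted over the 16, the exact p of these 9 was 0.0508, so 0 passed 0.05. With only 9 at the smallest p, none could pass, whatever the size of its difference. The 9 were Nid1 to Nid2 and Lamb1 to Lamb2 at days 3, 7 and 11, Lama4 to Lama2 at days 3 and 7, and Col4a1 to Col4a2 at day 0. The collagen ratio at day 0 was 0.57 ± 0.03 in control libraries and 0.71 ± 0.09 in knockdown libraries, with 0.78 for shRNA 1 and 0.63 for shRNA 2. In control cells it rose from 0.57 at day 0 to between 0.93 and 1.02 later. Reads of unlike chains are not set per length here, since length cancels in the difference between groups.

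**Figure D4:**
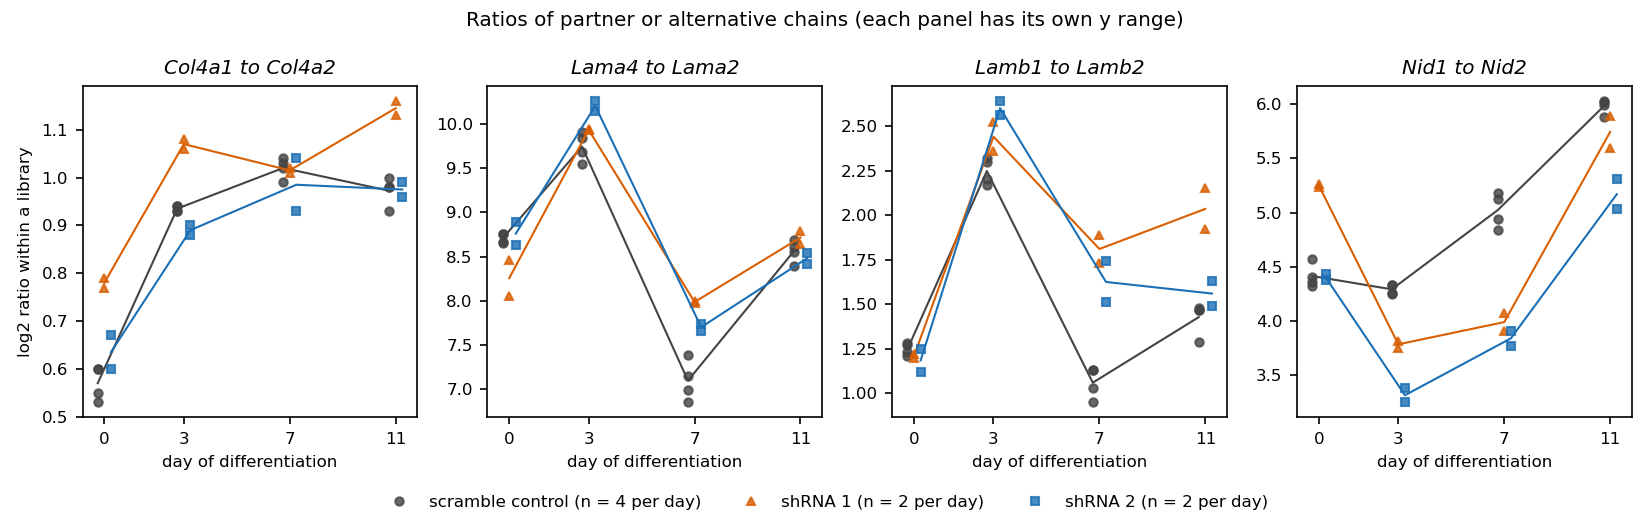
Log2 ratio of 2 genes within each library (y axis, a separate range in each panel) by day (x axis) for 4 scramble control, 2 shRNA 1 and 2 shRNA 2 libraries, with lines through group means. The knockdown libraries lay below the controls for Nid1 to Nid2 at days 3, 7 and 11, with a mean difference of -1.11 at day 7, and above them for Lamb1 to Lamb2 on the same 3 days. At day 0 the arms overlapped for Lamb1 to Lamb2 (1.12 to 1.24 against 1.21 to 1.28).

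The same pathway was followed through 5 further lists. In the list of proteases, inhibitors and other turnover genes, 11 of 12 were tested, and 9, 9 and 6 were called at days 3, 7 and 11, all of them lower with knockdown. Over all genes, 12.1%, 22.6% and 16.2% were called lower on those days. Mmp9, a gelatinase that cleaves type IV collagen, fell from 1456 ± 28.1 normalized reads in control to 342 ± 62.4 in knockdown libraries at day 7 (SD, n = 4; log2 change -1.99, limma adjusted p = 8.67e-10). Its changes were -0.41 (not called), -1.04 and -1.33 at days 0, 3 and 11. Mmp3, stromelysin, changed by 0.37 (not called), -0.99, -1.56 and -0.35. Timp2, an inhibitor of these proteases and not a protease, changed by -0.03 (not called), -0.72, -1.37 and -0.94.

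Of the other type IV collagen and laminin chains, 5 of 10 were tested at day 0 and 4 on each later day. Called were 1 at day 0 (lower), 0 at day 3 by limma (3 at an unadjusted p under 0.05), 4 at day 7 (3 higher and 1 lower) and 2 at day 11 (1 in each direction). Over all genes, 3.25%, 26.7%, 47.6% and 33.0% were called on days 0, 3, 7 and 11. Lama5 was lower at day 0 (-0.69, adjusted p = 0.0131) and higher at day 7 (0.84, adjusted p = 5.78e-05), with 694 ± 55.3 normalized reads in control and 1303 ± 279 in knockdown libraries (SD, n = 4). At days 3 and 11 it differed by -0.17 and 0.19, neither called. Col4a5, the alpha5 chain of type IV collagen, was lower at days 7 and 11 (-0.63 and -0.69), and at days 0 and 3 by -0.26 and -0.32, not called. Lamb3, a beta chain of skin laminin, rose from 66.1 ± 12.4 to 454 ± 189 normalized reads at day 7 (log2 change 2.30) and from 33.1 ± 6.64 to 354 ± 182 at day 11 (2.67). At days 0 and 3 its differences were -0.18 and 0.43, not called. G0s2, noticed after these values were seen, lies within the span of Lamb3 on the opposite strand and shares 0 exon bases with it in GENCODE M21. At day 7 it had means of 445 normalized reads in control and 2244 in knockdown libraries, and its part in the Lamb3 result was not tested.

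Among 18 other basement membrane proteins, 12 were tested at day 3 and 13 at days 0, 7 and 11. Called were 3 at day 0 (all lower), 3 at day 3 (all lower), 8 at day 7 (3 higher and 5 lower) and 6 at day 11 (3 higher and 3 lower), against those same shares of all genes. Smoc1, a calcium-binding matrix protein, changed by 0.08 (not called), -0.62, 1.27 and 1.00 at days 0, 3, 7 and 11. Col15a1, the collagen XV chain of basement membrane zones, changed by -0.31 and 0.31 (not called), then by 1.11 and 1.40. Npnt, nephronectin, changed by -0.30 and 0.49 (not called), then by 1.17 and 0.87. It had few reads. At day 7 the means were 53.34 ± 10.25 normalized reads in control and 160.8 ± 48.31 in knockdown libraries (SD). At day 11 they were 15.14 ± 6.755 and 49.13 ± 30.39. The deposited transform draws low genes towards their mean, so log2 differences of Npnt are understated and are not ranked between days.

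Of 22 genes for collagen modification and assembly or heparan sulfate synthesis, 20 were tested. Called were 3 at day 3, 14 at day 7 (10 higher and 4 lower) and 14 at day 11 (9 higher and 5 lower), where 26.7%, 47.6% and 33.0% of all genes were called. The lysyl hydroxylase Plod1 changed by 0.45 at day 7 and 0.96 at day 11, and by -0.38 and -0.10 at days 0 and 3, not called. Plod2, another lysyl hydroxylase, changed by 0.16 (not called), 0.27, 0.61 and 0.94. P4ha2, a prolyl hydroxylase subunit, changed by -0.01 and 0.07 (not called), then by 0.55 and 0.89.

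Of 21 receptors and their partners, 19 were tested, and 11 were called on each of days 3, 7 and 11 (4, 6 and 7 higher). At day 7 this is near the 47.6% of all genes called, against 26.7% and 33.0% at days 3 and 11. Itga7, a laminin-binding integrin chain, rose from 743 ± 17.4 to 3009 ± 397 normalized reads at day 7 (log2 change 1.91, adjusted p = 4.91e-11). Its other changes were 0.25 (not called), 0.84 and 1.62 at days 0, 3 and 11. Itga6, likewise laminin-binding, changed by -0.05 (not called), 0.65, 1.75 and 0.89. Itga3, also laminin-binding, changed by -0.08 (not called), -0.41, -0.24 (not called) and -0.87.

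Across the 12 group means (3 hairpins on 4 days), which come from the same libraries, Col4a1 and Col4a2 had a Pearson correlation of 0.982. Lamc1 correlated with Lama4 at 0.961, with Col4a1 at 0.956 and with Lamb1 at 0.918. Hspg2 and Lamb1 had the lowest value of the 45 pairs, -0.698, and Nid1 correlated at -0.505 with Lamb2 and at -0.436 with Nid2. These are descriptions over 12 points. By the same measure, against the mean of Col4a1 and Col4a2 and among 9587 genes, the closest were Ntmt1 (0.989), Tmem109 (0.986), Serpina3k (0.984), Rxra (0.982) and Col6a1 (0.979).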

How the data were processed

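The authors deposited 1 table of log2 values for all 32 libraries (20560 genes, from -1.56 to 17.99), and how the log2 values were made from reads is not given in the sources used here. TopHat2 2.1.0, Bowtie2 2.2.6, SAMtools 1.3.1 and HTSeq 0.6.1 are named in the submitters' processing notes, while genome build, annotation and strand setting are not given in the sources used here. Inverting a regularized-log form gave reads within 0.1 of a whole number for 95.9% of values (20% by chance) and for 89.4% of the members' values. Normalized reads and depth rest on that inversion.

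limma 3.58.1 (R 4.3.3, mean-variance trend, robust empirical Bayes) was fitted to the deposited log2 values of genes with 2 to the power of the value at least 10 in at least 4 libraries of the fit, with Benjamini-Hochberg adjustment over all of them. Control days were compared in 1 fit of 16 libraries, knockdown and control per day in fits of 8, and hairpins in the same fits with 3 groups. The scripts were tested on simulated data. Python 3.11.15, scipy 1.17.1 and pandas 2.3.3 did the rest. The members and lists were chosen with earlier results of these data known. All 10 members were named whatever their values, and from each list up to 3 genes with the largest changes among those called. Replicate pairs differed by more than sampling noise (chi-square per degree of freedom 3.001 to 11.755 over 32 pairs). Alternatives covered filters, scalings, the variance model, a pseudocount of 1, voom on rebuilt reads, other groupings and leaving out each library.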

Additional observations from a re-analysis of the deposited data

Results flagged for a closer look

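The knockdown difference (knockdown minus control, log2) was larger or smaller than at day 0, by a limma test of the change itself, in 11 cases. For Nid2 it was higher by 0.81, 1.03 and 0.51 on days 3, 7 and 11 (adjusted p = 0.0065, 7.81e-05 and 0.0435). For Lamb1 it was higher by 0.41, 0.49 and 0.33 (adjusted p = 0.00279, 4.36e-05 and 0.00504). Lamc1 was higher by 0.32 and 0.26 on days 7 and 11 (adjusted p = 0.00483 and 0.0277), and Lama4 by 0.50 at day 7 (adjusted p = 0.00123). For Nid1 the change was -0.50 and -0.43 on days 7 and 11 (adjusted p = 0.00219 and 0.00972). At day 11, Lamc1 was not called when any 1 of 7 of the 32 libraries was left out, nor Nid2 for any 1 of 12. Neither was called with libraries scaled to equal totals (adjusted p = 0.0714 and 0.063), which leaves 2 of the 4 calls of day 11. With the same scaling Nid1 at day 3 (-0.38, adjusted p = 0.0422) and Lamb2 at day 7 (-0.29, adjusted p = 0.0417) were called as well. Without the library labelled shRNA 1 replicate 2 of day 11, Lama4 was also called on that day (0.37, adjusted p = 0.00892). Nid2 at day 11 was also not called with no filter (adjusted p = 0.0636).

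In 3 of 40 control groups of 4 libraries, the lowest library lay far from the other three relative to the group's range, where chance gives about 1 in 20. The gap was 0.892 of the range for Lama2 at day 11, 0.867 for Lamc1 at day 7 and 0.93 for Nid1 at day 3, against a limit of 0.829.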

How the results depend on the processing

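Of 4928 values of single genes under all alternatives, 4745 stayed on their side of the threshold, 121 lost the call, 62 gained it and 0 called values reversed. Among the 4745, 98 values called under neither setting changed sign, the largest being 0.19. Knockdown against control gave 3 calls at day 3 and 3 at day 11, and with the replicate block 0 and 0, where 6.43% and 12.4% of all genes were then called, against 26.7% and 33.0%. The replicate numbers mark no shared source in the labels. On each day, scramble control replicates 3 and 4 have no knockdown library of the same number. In a fit of 1 day the block fits these 2 libraries exactly, so its comparisons rest on the libraries numbered 1 and 2. Same-numbered knockdown and control libraries of a day deviated together at r over 0.1 in 5 of 16 pairs, 3 of them among the 4 pairs of day 11 (0.283, 0.173 and 0.19, with 0.011 for the fourth). Under the replicate block the differences of Lamb1, Lamc1 and Nid2 were 0.29, 0.24 and 0.62 at day 3 (adjusted p = 0.118, 0.0512 and 0.167) and 0.21, 0.29 and 0.35 at day 11 (adjusted p = 0.154, 0.0977 and 0.143). Nid1 at day 7 was then at -0.18 (adjusted p = 0.182) and Zbtb9 at -0.33 (adjusted p = 0.119). The change of the Nid2 knockdown difference from day 0 to day 11 then had an adjusted p of 0.0605. Over 40 gene-days, hairpin totals under the block stayed within 1.5 times, but with shRNA 2 at day 0 Hspg2 and Lamc1 were then called (adjusted p = 0.0018 and 0.00931). With shRNAs as separate groups, 5, 7 and 6 genes were called at days 0, 3 and 11. Leaving out each library gave 1 to 6 calls at day 11, 2 to 4 at day 3, 6 to 8 at day 7 and 0 at day 0. Between hairpins, 23 of 40 gene-days were called, and 13 with no trend and no robust empirical Bayes. By a difference of medians, 9 of the 16 ratios had an exact p of 0.0571, the smallest that statistic allows with 4 against 4 libraries. It could therefore put 0 of them under 0.05, against 9 by means. With equal totals, Lamb1 at day 7 against day 0 in control cells was called (-0.11, adjusted p = 0.00911), while Lamb2 at day 7 (adjusted p = 0.0738) and Col4a2 at day 11 (adjusted p = 0.0872) were not. In 1 fit of all 32 libraries, the calls of Lamb2 at days 3, 7 and 11, of Col4a2 at day 11 and of Lama4 at day 11 against day 7 (adjusted p = 0.0552) were lost in control cells. The cause of these moves was not tested. Depth limits Lama2 and Zbtb9, whose log2 differences are drawn towards 0. The same holds for other low genes named here, such as Npnt, Lamb3 and Lyz2.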
